A study of Mus musculus with 2 samples.

Results

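The genes described here are 9 members and readouts of the Notch2 pathway in conventional dendritic cells of type 2 (cDC2): Notch1, Notch2, Rbpj, Dtx1, Hes1, Nrarp, Esam, Adam10 and Adam23. They were chosen by symbol, and all 9 are among the 31053 genes that both deposited count matrices list. The series profiled single spleen cells with a droplet 3′ method that counts transcripts as unique molecular identifiers (UMIs), and it asked how M-cDC1, M-cDC2, L-cDC1 and L-cDC2 cells differ. All mice were naive, 7 to 9 weeks old and SPF-housed, and all carried both the Il7r-cre and the Rosa26-lsl-tdTomato allele. Il7r encodes a chain of the interleukin 7 receptor on lymphoid progenitors, and its promoter drives Cre here, so a cell whose lineage has passed through Il7r expression makes the red fluorescent protein tdTomato from then on. Cells were enriched for CD11c with magnetic beads and sorted into tdTomato+ cells, called L-cDC, and tdTomato- cells, called M-cDC. The label records a history of Cre activity in any lineage, and the sources used here do not say how many mice were pooled. Each group is 1 library, so no difference could be set against replicates, no test was made, and every interval given here is a 95% interval for counting error only.

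Notch receptors are cut in steps after a ligand on a neighbouring cell binds them. ADAM10 removes the outer part, gamma-secretase frees the inner part, and this part joins the DNA-binding protein RBPJ in the nucleus to switch on targets such as Hes1, Nrarp and Dtx1. In mouse spleen, Notch2 and Rbpj in dendritic cells are known to be needed for the cDC2 that carry the adhesion molecule ESAM, and cDC2 without ESAM are known for a more monocyte-like set of genes. ADAM23 belongs to the same family of membrane proteins as ADAM10 but lacks protease activity.

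RBPJ binds DNA at the core letters TGGGAA. The sequence before RefSeq starts of the genes was therefore searched for TGGGAA and its reverse complement TTCCCA. RefSeq's table for GRCm38.p6 held promoters for 7 of the 9 genes, 8 promoters in all, and Hes1 and Esam were not among them. Of the 250 bases before each start, 2 promoters held a match, both of Rbpj and overlapping each other, against 7094 of 32851 windows of this length over all genes (21.6%). Both Rbpj windows lie inside the annotated span of the gene (chr5:53466152-53657362), before starts within it. Shown are the promoter of the receptor gene Notch2, that of Rbpj, which holds matches, and that of Adam23, which had the most UMIs of the 9 genes in cDC2 and was higher in L-cDC there. The stretches are chr3:98013288-98013526, chr5:53590096-53590213 and chr1:63445641-63445890, all on the forward strand and cut to bases outside annotated exons. Each runs 5′ to 3′, and capitals mark a forward match that starts 149 bases before the first of the 2 Rbpj starts in the table. A match of the reverse complement lies 65 bases before that start, in an annotated exon outside the printed stretch, and it is also the match of the second Rbpj promoter, 205 bases before its start. A match describes these letters and is no evidence of binding.
Notch2: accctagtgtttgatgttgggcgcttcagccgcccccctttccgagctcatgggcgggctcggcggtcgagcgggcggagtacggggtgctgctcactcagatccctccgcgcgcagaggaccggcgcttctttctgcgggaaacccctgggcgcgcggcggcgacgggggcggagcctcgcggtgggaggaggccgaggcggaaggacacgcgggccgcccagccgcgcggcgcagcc
Rbpj: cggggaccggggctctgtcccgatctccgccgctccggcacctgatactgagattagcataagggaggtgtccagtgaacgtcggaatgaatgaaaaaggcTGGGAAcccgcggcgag
Adam23: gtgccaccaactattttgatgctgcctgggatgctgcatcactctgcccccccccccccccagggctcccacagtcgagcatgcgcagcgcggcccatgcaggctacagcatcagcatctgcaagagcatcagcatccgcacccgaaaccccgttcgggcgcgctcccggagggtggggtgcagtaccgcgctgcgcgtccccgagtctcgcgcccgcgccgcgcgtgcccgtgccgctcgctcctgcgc

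The L-cDC library held 4939 barcodes with 40170515 UMIs and the M-cDC library 6674 with 52973960, at a median of 7652 and 7156 UMIs per barcode. After filters, 3943 and 5600 cells were kept, and 6 barcodes occurred in both libraries, 4 of them among kept cells. Cells were clustered with the 9 genes and 53 other Notch pathway genes left out, and clusters were named from marker lists. The label "conventional dendritic cell" did not cover all of them: 195 cells of L-cDC and 1 of M-cDC were NK-like, and 48 and 0 were B cell-like. Cells with the markers of mature dendritic cells (Ccr7, Fscn1) made up 2773 cells of L-cDC and 3192 of M-cDC, and cDC1-like cells 146 and 486. The cDC2-like class had 215 and 1156 cells in 2 clusters. The cluster led by Ffar2, Ltb and Clec4a4 held 142 and 906 of them, and that of Mgl2, Lyz2 and Cd209a 73 and 250. Levels are UMIs of a gene per 1000000 UMIs (CPM) of a class or cluster in a library.

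Between the libraries, the core of the pathway stood at like levels in cDC2-like cells. Notch2, Rbpj and Adam10 differed by at most 1.14-fold, while Adam23 was higher in L-cDC and Esam and Dtx1, both sparse, were lower there under the main settings. A size of 1.5-fold was set for genes with at least 20 CPM in the higher group and at least 50 UMIs over both. None of the 5 genes with enough UMIs (Notch2, Rbpj, Dtx1, Adam10, Adam23) passed that size, against 323 of 5327 genes overall (6.06%). The median log2 ratio, L-cDC to M-cDC, was 0.06 for these 5 and -0.05 for all genes considered.

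Of the receptors, Notch2 (GRCm38 chr3:98013527-98150361) is the form on which splenic cDC2 are known to depend. Its level was 48.0 CPM (39.1 to 58.3) for L-cDC beside 42.2 CPM (38.0 to 46.8) for M-cDC, a ratio of 1.14 (0.903 to 1.42). A Notch2 UMI was seen in 37.2% of the cDC2-like cells of L-cDC and 26.3% of those of M-cDC, whose median depths were 9037 and 7136 UMIs. With each cell thinned to 3000 UMIs the shares were 13.3% (9.05 to 18.7) and 13.4% (11.5 to 15.5), so no difference was detectable at equal depth. Notch1, the receptor known for T cell commitment, had 9 UMIs (4.28 CPM) and 15 UMIs (1.73 CPM), with a ratio of 2.48 (0.957 to 6.05). Of the other receptors, Notch4 had 4 and 5 UMIs and Notch3 had 1 and 0.

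Adam10 (chr9:70678997-70780229), which makes the first cut of a bound receptor, stood at 32.3 CPM for L-cDC beside 32.6 CPM for M-cDC, a ratio of 0.993 (0.75 to 1.30). Rbpj (chr5:53466152-53657362), the nuclear partner of the cut receptor, stood at 116 and 111 CPM, a ratio of 1.04 (0.903 to 1.202). The clusters within cDC2 went different ways for Rbpj. In the Ffar2/Ltb cluster its level was 81.4 CPM for L-cDC beside 105 CPM for M-cDC, a ratio of 0.777 (0.620 to 0.965). In the Mgl2/Lyz2 cluster it was 159 and 128 CPM, a ratio of 1.24 (1.01 to 1.51). The sources used here do not say whether reads were counted by strand, and Rbpj overlaps the gene models Gm10441 and Gm40304 on the other strand.

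Of the 3 classical targets, Dtx1 (chr5:120680202-120711927), a ubiquitin ligase that binds the inner part of Notch, had 32 UMIs (15.2 CPM, 10.4 to 21.5) in cDC2-like cells of L-cDC and 195 (22.4 CPM, 19.4 to 25.8) in those of M-cDC. The ratio was 0.678 (0.451 to 0.989). Nearly all Dtx1 UMIs lay in the Ffar2/Ltb cluster, 32 of 32 for L-cDC and 191 of 195 UMIs for M-cDC, and there its levels of 27.4 and 30.1 CPM gave a ratio of 0.910 (0.605 to 1.33). Over the alternatives the ratio between the libraries in cDC2-like cells lay below 1 in 14 of 16. It ran from 0.161, with each library clustered alone, to 1.89, in the Mgl2/Lyz2 cluster alone. That 1.89 comes from the floor of 3 counts and shows no higher level in L-cDC. The Mgl2/Lyz2 cluster had 0 Dtx1 UMIs in L-cDC and 4 in M-cDC. The Ffar2/Ltb cluster held 142 of 215 cDC2-like cells of L-cDC and 906 of 1156 of M-cDC. Hes1 (chr16:30064384-30067796), a transcriptional repressor, was at 6.66 CPM (14 UMIs) and 6.90 CPM (60 UMIs), a ratio of 0.964 (0.498 to 1.75). Nrarp (chr2:25180758-25183339), a feedback inhibitor of Notch, had no UMI in either group. For L-cDC, 0 of 215 cells allows a share of cells with a UMI of up to 1.40%, and for M-cDC 0 of 1156 allows up to 0.260%.

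Esam (chr9:37528078-37538319), the surface adhesion molecule whose protein divides splenic cDC2, was sparse in cDC2-like cells. It had 6 UMIs in 6 cells of L-cDC (2.85 CPM, 1.05 to 6.21) and 92 UMIs in 79 cells of M-cDC (10.6 CPM, 8.53 to 12.98). The ratio was 0.270 (0.0964 to 0.609), at a level below the 20 CPM asked for. With the cluster led by Mdk and Ryr3 counted as cDC2-like and not as mature-like, the log2 ratio of Esam turned from -1.89 to 0.040. In that cluster alone, with 135 cells of L-cDC and 240 of M-cDC, Esam was also lower in L-cDC. Its level there was 54.7 against 80.0 CPM, a ratio of 0.684 (0.482 to 0.962). The part of these cell numbers in the turn was not tested. In the main cDC2-like class the share of cells with an Esam UMI was 2.79% (1.03 to 5.97) and 6.83% (5.45 to 8.44), and 1.90% (0.521 to 4.805) and 3.79% (2.76 to 5.07) after thinning, where the intervals overlap. As a measure of free RNA, 1 of 195 NK-like cells of L-cDC had an Esam UMI (0.513%, 0.0130 to 2.82) at a median depth of 8015 UMIs, and the interval of the L-cDC share overlaps that one. In the Ffar2/Ltb cluster alone the levels were 5.14 and 13.1 CPM, a ratio of 0.393 (0.140 to 0.891). Endothelial cells and megakaryocytes also make Esam. Of 7 endothelial markers, Cldn5, Tie1 and Emcn were at 0 in cDC2-like cells of both libraries and Cdh5 also in L-cDC. Their summed level of 42.8 and 31.5 CPM was nearly all Pecam1, at 41.4 and 28.4 CPM, and 5 of 6 megakaryocyte markers were at 0 in both.

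Adam23 (chr1:63445891-63596276) had the most UMIs of the 9 genes, 690 in L-cDC and 2109 in M-cDC. Its level was 328 CPM (L-cDC) and 243 CPM (M-cDC), a ratio of 1.35 (1.24 to 1.47). The ratio was 1.25 (1.12 to 1.40) in the Ffar2/Ltb cluster, at 348 and 278 CPM. In the Mgl2/Lyz2 cluster it was 2.05 (1.75 to 2.41), at 303 and 148 CPM. There Adam23 alone among 4 genes with enough UMIs passed 1.5-fold, and 15.6% of all genes considered did, 7.53% in this direction. In the Ffar2/Ltb cluster 0 of 5 genes passed, against 7.20% of all. An unnamed cluster led by Cd209d and Siglech, with 176 and 82 cells, gave an Adam23 ratio of 2.72 (2.27 to 3.29), at 380 and 140 CPM, which was 1 gene of 4, higher, against 15.8% of all and 6.32% higher. In cDC1-like cells Adam23 was at 167 and 169 CPM, and no member passed 1.5-fold, against 2.16% of all genes.

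Markers of other cells moved with the libraries inside the cDC2-like class. The 13 mature dendritic cell markers summed to 1123 CPM for L-cDC beside 796 CPM for M-cDC. Of 9 with enough UMIs, 5 were at least 1.5-fold higher in L-cDC, where 3.59% of all genes were. Fscn1, which bundles actin in mature dendritic cells, was at 161 and 67.3 CPM. The 10 plasmacytoid dendritic cell markers summed to 538 and 312 CPM, and 4 of 6 were at least 1.5-fold higher, beside the same 3.59% of all genes. The part of these in the ratios of Adam23, Esam and Dtx1 was not tested.

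**Figure D1:**
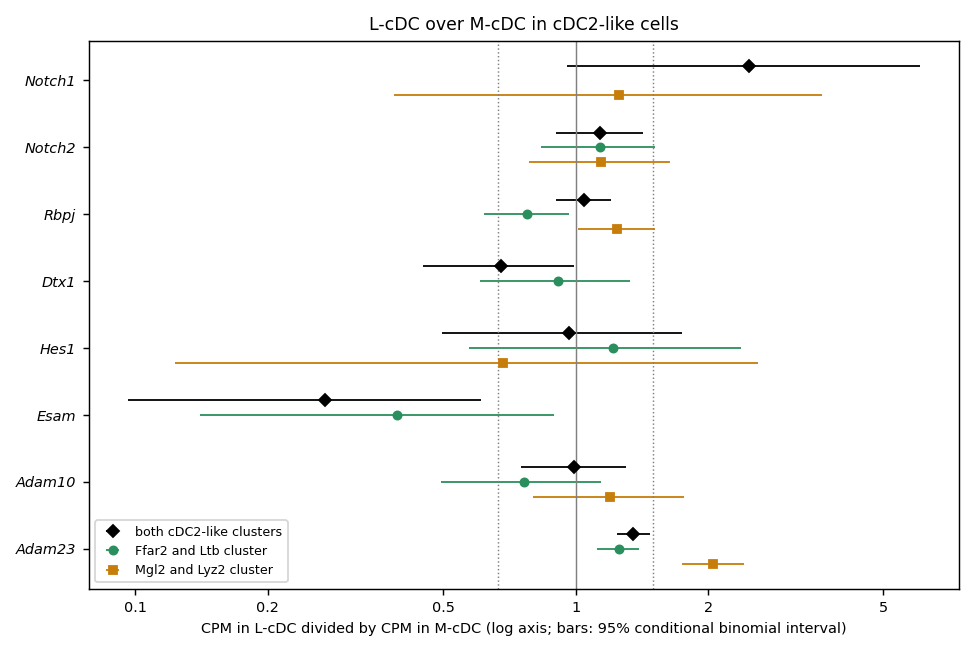
Ratio of the level in L-cDC over that in M-cDC (log axis) for the genes with a ratio, in both cDC2-like clusters together (diamonds), the Ffar2 and Ltb cluster (circles) and the Mgl2 and Lyz2 cluster (squares). Bars are 95% conditional binomial intervals and dotted lines mark 1.5-fold. Notch2 lies at 1.14 in all 3, Rbpj lies on either side of 1 in the separate clusters, and Adam23 is at 2.05 in the Mgl2 and Lyz2 cluster.

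The 53 other Notch pathway genes showed few differences of size between the libraries in cDC2-like cells. Of 24 with enough UMIs, 2 were at least 1.5-fold higher in L-cDC (3.59% of all genes were) and 1 was lower (2.48%), and their median log2 ratio was -0.03. Dtx2, a relative of Dtx1, was at 20.4 CPM for L-cDC beside 12.8 CPM for M-cDC, a ratio of 1.60 (1.10 to 2.30). Tcf7, a transcription factor that Notch switches on in T cell progenitors, had a ratio of 1.66 (1.22 to 2.24), at 29.95 and 18.1 CPM. Neurl3, of the Neuralized family of ubiquitin ligases, had a ratio of 0.662 (0.532 to 0.816), at 49.0 and 74.0 CPM. Ligands were low on these cells: Jag1 was at 9.51 and 9.89 CPM, and Dll4 had 1 UMI in each library. Of the cleavage and glycosylation genes, 0 of 8 passed: Psenen, a gamma-secretase subunit, had a ratio of 0.948 (0.834 to 1.07) and Adam17 one of 1.199 (0.980 to 1.458). The nuclear partners Snw1 (0.898) and Ep300 (1.06) and the target Hes6 (0.891) also stayed under that size, as did Ccnd1, a cyclin, at 753 and 940 CPM (ratio 0.801), and the ubiquitin ligase gene Itch at 104 and 145 CPM (ratio 0.714).

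Genes that go with ESAM-high and ESAM-low cDC2 were listed to see which side the L-cDC cells leaned to. Of 10 ESAM-low genes with enough UMIs, 5 were at least 1.5-fold higher in L-cDC and 0 lower, beside 3.59% and 2.48% of all genes, with a median log2 ratio of 0.46. They were Mgl2 (3.94), Ccr2 (2.72), Cx3cr1 (1.79), Lyz2 (1.60) and Csf1r (1.58), genes of monocyte-like cDC2. Of 7 ESAM-high genes, Cd4 was higher (81.3 against 48.2 CPM, ratio 1.69, 1.40 to 2.02), Ffar2 was lower (186 against 295 CPM, ratio 0.631, 0.566 to 0.702), and the median was -0.06. Within clusters the medians showed no such lean. Those of the ESAM-low list were -0.11 in the Ffar2/Ltb cluster and 0.04 in the Mgl2/Lyz2 cluster, beside -0.01 and -0.04 for all genes. The Mgl2/Lyz2 cluster makes up 73 of 215 cDC2-like cells of L-cDC and 250 of 1156 of M-cDC.

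Inside each library the intervals of Notch2 in the 2 cDC2-like clusters overlapped. Of the classical targets Dtx1 differed, the interval of the Hes1 ratio included 1 in both libraries, and Nrarp had no UMI in either cluster. In both libraries nearly all Dtx1 UMIs of the cDC2-like cells were in the Ffar2/Ltb cluster and Rbpj was higher in the Mgl2/Lyz2 cluster. Esam was higher in the Ffar2/Ltb cluster of M-cDC. The 9 genes did not enter the clustering, but other genes of the same cells drew the clusters, so the values describe them. In M-cDC, 2 of 5 genes were at least 1.5-fold higher in the Ffar2/Ltb cluster and 0 lower, where 10.8% and 6.41% of all genes were (17.2% together). In L-cDC, 0 of 4 were higher and 2 were lower, where 21.2% and 10.8% of all genes were (31.9% together).

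Notch2 was at 42.3 CPM in the Ffar2/Ltb cluster and 42.1 CPM in the Mgl2/Lyz2 cluster of M-cDC, a ratio of 1.004 (0.795 to 1.28), and at 48.0 and 48.1 CPM in L-cDC, a ratio of 0.998 (0.662 to 1.51). Rbpj was at 105 and 128 CPM in M-cDC, a ratio of 0.816 (0.711 to 0.938), and at 81.4 and 159 CPM in L-cDC, a ratio of 0.511 (0.391 to 0.666). Notch1 had 3 UMIs against 12 in M-cDC and 3 against 6 in L-cDC. No difference in Notch2 was detectable between the clusters at this depth, with a ratio in L-cDC of 0.656 once cells were thinned to 3000 UMIs, and Rbpj was lower in the Ffar2/Ltb cluster in both libraries. Adam10 was at 31.4 and 35.7 CPM in M-cDC, a ratio of 0.879 (0.678 to 1.15), and at 24.0 and 42.7 CPM in L-cDC, a ratio of 0.561 (0.334 to 0.933).

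Dtx1 in M-cDC was at 30.1 CPM (26.0 to 34.7) in the Ffar2/Ltb cluster and 1.70 CPM (0.463 to 4.35) in the Mgl2/Lyz2 cluster, a ratio of 17.7 (6.81 to 65.7). In L-cDC it was at 27.4 CPM (18.8 to 38.7) against 0 UMIs. With 3 counts as the floor for the 0 this is 8.55-fold higher, the lower limit of the ratio from the counts is 6.56, and the value at the floor was 2.67-fold with cells thinned to 3000 UMIs. No group of the Mgl2/Lyz2 cluster overlapped a group of the Ffar2/Ltb cluster in its Dtx1 interval. A Dtx1 UMI was seen in 12.7% and 13.4% of cells of the Ffar2/Ltb cluster in L-cDC and M-cDC, and in 0 of 73 and 4 of 250 cells of the other. In cDC1-like cells of M-cDC, which are deeper at a median of 13688 UMIs, 0 of 486 cells had one, which allows up to 0.617%. The cell with most Dtx1 UMIs held 10 of the 191.

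Esam in M-cDC was at 13.1 CPM (10.4 to 16.2) in the Ffar2/Ltb cluster and 3.83 CPM (1.75 to 7.26) in the Mgl2/Lyz2 cluster, a ratio of 3.42 (1.72 to 7.74). In L-cDC it had 6 UMIs against 0, where the ratio has a lower limit of 0.944, so no difference was detectable. Hes1 leaned the same way, at 7.73 and 4.68 CPM in M-cDC, with a ratio of 1.65 (0.848 to 3.53) whose interval includes 1. Adam23 was at 278 and 148 CPM in M-cDC, a ratio of 1.88 (1.67 to 2.11), and at 348 and 303 CPM in L-cDC, a ratio of 1.15 (0.983 to 1.34). The share of Esam-positive cells in the M-cDC Ffar2/Ltb cluster was 4.39% (3.14 to 5.96) at 3000 UMIs per cell, beside 1.67% (0.725 to 3.27) in cDC1-like cells of that library.

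Cells of that cluster with and without an Esam UMI were set side by side after thinning, 39 against 849. Dtx1 was seen in 7.69% of the Esam-positive cells (1.62 to 20.9) and 7.42% of the others (5.75 to 9.39), so no difference was detectable at this depth. Split by Dtx1, 4.55% of 66 positive cells and 4.38% of 822 others had an Esam UMI. A UMI of Mdk, a growth factor gene that leads a mature-like cluster, was seen in 15.4% (5.86 to 30.5) of Esam-positive cells and 3.18% (2.11 to 4.59) of the others. For Ryr3, which leads the same cluster, the shares were 35.9% (21.2 to 52.8) and 17.3% (14.8 to 20.03), and for Adam23 69.2% (52.4 to 83.0) and 51.2% (47.8 to 54.7). For Ccr7, the homing receptor of mature dendritic cells, the shares were 17.9% (7.54 to 33.5) and 6.95% (5.33 to 8.87). These genes were picked after their values were seen, and cells of 1 library are not replicates.

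**Figure D2:**
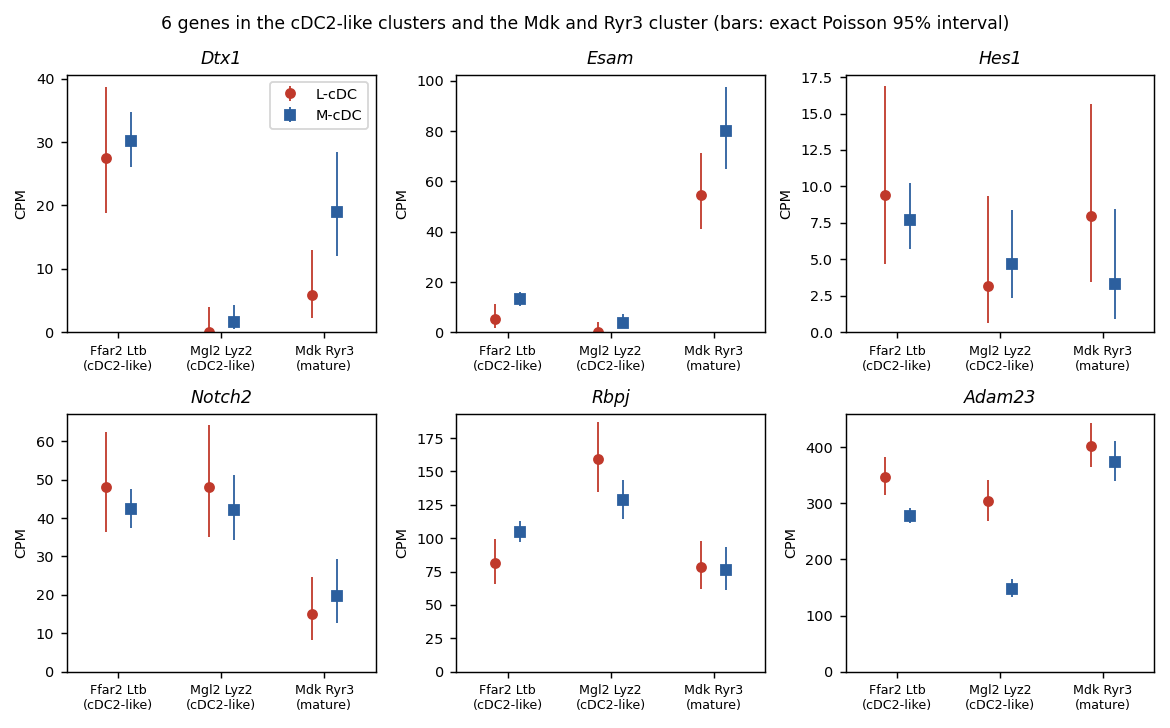
Level in CPM of 6 genes in the 2 cDC2-like clusters and in the mature-like cluster led by Mdk and Ryr3, for L-cDC (circles) and M-cDC (squares), with 95% Poisson intervals. Dtx1 is at 27.4 and 30.1 CPM in the Ffar2 and Ltb cluster and at most 1.70 CPM in the Mgl2 and Lyz2 cluster, while Notch2 lies between 42.1 and 48.1 CPM in both.

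The other pathway genes gave further values for the same contrast of clusters. In M-cDC, 7 of 23 with enough UMIs were at least 1.5-fold higher in the Ffar2/Ltb cluster and 0 lower, beside 10.8% and 6.41% of all genes. In L-cDC, 7 of 21 were higher and 4 lower, beside 21.2% and 10.8% of all genes. Among targets, Ccnd1 was at 1144 against 388 CPM in M-cDC (ratio 2.95, 2.75 to 3.16) and 1074 against 353 CPM in L-cDC (3.05, 2.70 to 3.45). Tcf7 had ratios of 14.2 (5.43 to 52.7) and 2.36 (1.31 to 4.45), and Hes6, a repressor of the Hes family, 1.57 (1.24 to 2.01) and 1.71 (1.10 to 2.71). Itch, a ubiquitin ligase that acts on Notch, had 1.69 (1.46 to 1.96) and 1.89 (1.40 to 2.56). Lfng, a glycosyltransferase that modifies Notch, had 1.66 (1.29 to 2.18) in M-cDC and 1.58 in L-cDC, where the interval includes 1. In M-cDC the ubiquitin ligase gene Fbxw7 (1.52, 1.10 to 2.15) was also higher. In L-cDC, Snw1 was higher (1.54, 1.14 to 2.08), and Adam17 (0.648, 0.452 to 0.926), Aph1a (0.594, 0.384 to 0.911) and Mib1 (0.401, 0.218 to 0.713) were lower.

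The clusters also carried the ESAM-high and ESAM-low gene lists in opposite directions, with 5 of 7 ESAM-high genes higher and 9 of 10 ESAM-low genes lower in the Ffar2/Ltb cluster of both libraries. Of all genes, 10.8% were higher and 6.41% lower in M-cDC, and 21.2% and 10.8% in L-cDC. Several of these genes are cDC2 markers and drew the clusters, so the counts describe them. In M-cDC, Clec4a4 was at 47.3 against 9.35 CPM and Lyz2 at 37.4 against 4255 CPM. Irf4, listed with ESAM-high cells, was the exception and lower in both, at 29.7 against 44.6 CPM in M-cDC and 36.8 against 57.7 CPM in L-cDC.

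Outside the cDC2-like class, Esam was higher in mature-like cells, while Notch2, Dtx1 and Hes1 were lower. This held in both libraries, each compared within itself. The mature-like class joined clusters with unlike levels of cDC2 markers and was not split by cDC1 or cDC2 kind. Among its clusters with at least 50 cells in M-cDC, the 15 cDC2 markers summed to between 57.6 and 2817 CPM. The lowest sum was in a cluster led by Txndc17 and the highest in the Mdk and Ryr3 cluster. The part of this mix in the ratios to cDC2-like cells was not tested. Of the 5 genes with enough UMIs in L-cDC, 1 was at least 1.5-fold higher and 1 lower in mature-like cells, where 19.0% and 36.3% of all genes were (55.4% together). Of 6 in M-cDC, 2 were higher and 2 lower, where 20.2% and 38.3% were (58.5% together). Most genes passed this size, so the counts of members are read as nothing more than that background. The median log2 ratio over all genes was -0.31 in L-cDC and -0.32 in M-cDC.

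Esam in L-cDC was at 42.0 CPM (39.5 to 44.7) in mature-like cells and 2.85 CPM in cDC2-like cells, a ratio of 14.7 (6.74 to 40.2) that rests on 6 UMIs in the lower group. In M-cDC it was at 49.1 CPM (46.3 to 52.0) and 10.6 CPM, a ratio of 4.64 (3.75 to 5.80). An Esam UMI was seen in 27.6% and 26.5% of mature-like cells, and in 12.5% (11.3 to 13.8) and 13.04% (11.9 to 14.3) at 3000 UMIs per cell. The mature-like class held 1031 and 1151 Esam UMIs, against 6 and 92 in the cDC2-like class. Endothelial markers summed to 3.42 and 2.47 CPM in these cells, with Tie1 and Emcn at 0 in both.

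Notch2 in mature-like cells was at 16.1 CPM (14.5 to 17.7) for L-cDC beside 13.9 CPM (12.5 to 15.5) for M-cDC, with ratios to cDC2-like cells of 0.334 (0.268 to 0.420) and 0.330 (0.284 to 0.384). Dtx1 was at 0.978 and 1.36 CPM, with ratios of 0.0643 (0.0362 to 0.113) and 0.0608 (0.0405 to 0.0887). Hes1 was at 0.774 and 0.938 CPM, with ratios of 0.116 (0.0553 to 0.251) and 0.136 (0.0794 to 0.225). For the mature-like class as a whole, the receptor and both targets were lower in both libraries in 14 of 14 alternatives. Over these the ratio of Dtx1 ran from 0.0322 to 0.283 in L-cDC and from 0.0180 to 0.147 in M-cDC. That of Hes1 in L-cDC ran from 0.0579 to 0.337. Rbpj went the other way, at 167 and 171 CPM, with ratios of 1.44 (1.26 to 1.64) and 1.54 (1.43 to 1.65), but with each library clustered alone the L-cDC ratio was 0.947. Adam10 had ratios of 1.40 (1.10 to 1.82) and 1.22 (1.07 to 1.40), with 0.985 in L-cDC when each library was clustered alone, and Adam23 0.777 (0.718 to 0.842) and 0.953 (0.906 to 1.003).

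Across the mature-like clusters the levels of Esam were uneven. In M-cDC they ran from 24.0 to 80.0 CPM over 6 clusters with a median of 51.2 CPM, and in L-cDC from 7.28 to 59.3 CPM over 8 with a median of 43.2 CPM. The cluster led by Mdk and Ryr3 had the highest level in M-cDC, 80.0 CPM (64.9 to 97.6), beside 54.7 CPM (41.2 to 71.2) in L-cDC. Its neighbour in that order, the cluster led by Mylk, was at 63.8 CPM (57.0 to 71.3) in M-cDC, and their intervals overlap. The lowest, 7.28 CPM (4.88 to 10.5), was a cluster led by Nrp2 and Clu with 366 cells in L-cDC and 1 in M-cDC. Next above it in L-cDC among mature-like clusters was that led by Txndc17 and Scin, at 20.4 CPM (13.7 to 29.3), whose interval does not overlap. In M-cDC the Txndc17 cluster, at 24.0 CPM (18.1 to 31.3), and the Itgb8 cluster, at 40.7 CPM (36.7 to 45.1), also had intervals apart, and the Ffar2/Ltb cluster stood below both.

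The Mdk and Ryr3 cluster joined traits of both classes. It had Fscn1 at 1234 CPM for L-cDC beside 1171 CPM for M-cDC, and it had Dtx1 at 5.97 CPM (6 UMIs) for L-cDC beside 19.0 CPM (23 UMIs) for M-cDC, where the other mature-like clusters reached 1.41 and 0.630 CPM at most. Between the libraries, L-cDC to M-cDC, its ratio was 0.315 (0.105 to 0.795) for Dtx1 and 0.684 (0.482 to 0.962) for Esam. No member with enough UMIs passed 1.5-fold between the libraries there, and 15.6% of all genes did. Notch2, at 14.9 and 19.8 CPM, lay within the range of the mature-like clusters. Hes1 was at 7.96 CPM (8 UMIs, 3.44 to 15.7) for L-cDC and 3.30 CPM (4 UMIs, 0.899 to 8.45) for M-cDC. The other mature-like clusters reached 1.93 CPM (0.923 to 3.54) and 1.54 CPM (0.842 to 2.58) at most, and these intervals overlap in both libraries. In cDC2-like cells Hes1 was at 6.66 and 6.90 CPM.

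**Figure D3:**
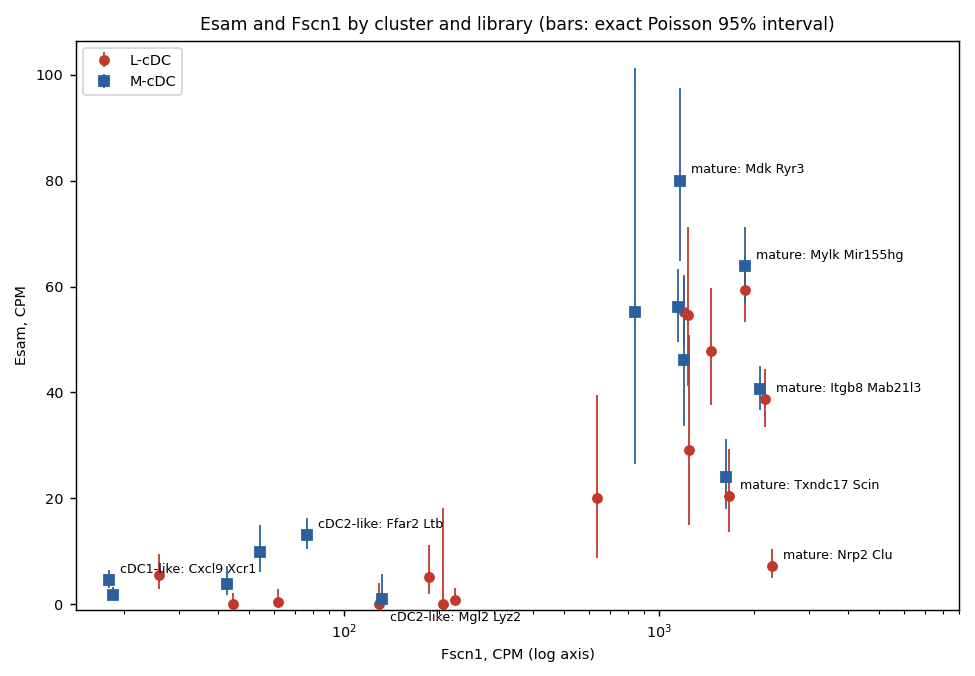
Level of Esam against that of Fscn1 (log axis), both in CPM, for each cluster with at least 50 cells in a library, with 95% Poisson intervals for Esam. Clusters with at least 637 CPM of Fscn1 hold the higher Esam levels, up to 80.0 CPM, with the Nrp2 and Clu cluster at 7.28 CPM as the exception, and clusters with at most 226 CPM of Fscn1 stay at or under 13.1 CPM of Esam.

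**Figure D4:**
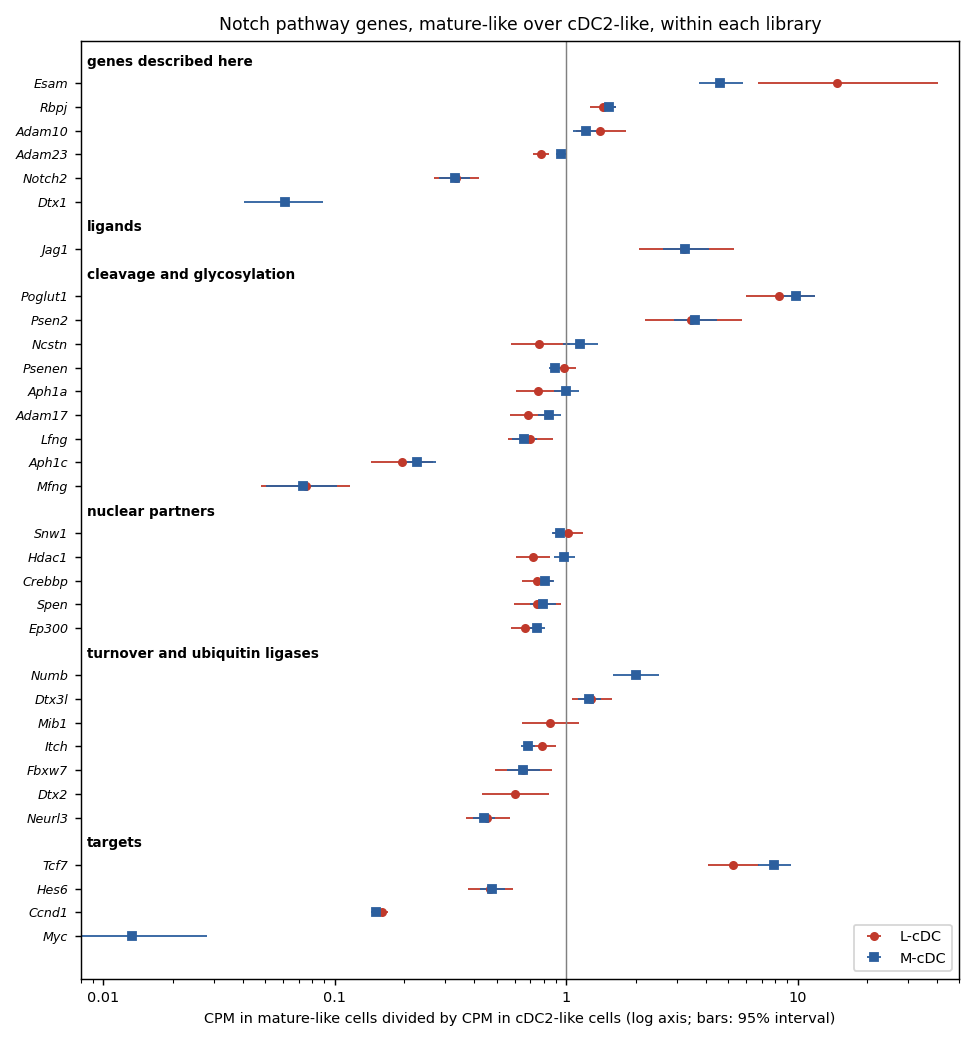
Ratio of the level in mature-like over cDC2-like cells (log axis) within L-cDC (circles) and M-cDC (squares), with 95% intervals, for the genes described here and other Notch pathway genes with enough UMIs, grouped by role. Esam, Poglut1 and Tcf7 lie farthest to the right and Dtx1, Mfng and Myc farthest to the left, and the 2 libraries lie close to each other for most genes.

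Of the other pathway genes, 4 of 26 were at least 1.5-fold higher and 8 lower in mature-like cells of L-cDC, and 5 and 9 of 26 in M-cDC. These shares are near those of all genes, 19.0% higher and 36.3% lower in L-cDC and 20.2% and 38.3% in M-cDC. The ligand gene Jag1 was at 30.6 and 32.3 CPM in mature-like cells, with ratios of 3.22 (2.07 to 5.31) in L-cDC and 3.27 (2.61 to 4.13) in M-cDC. Poglut1, which adds glucose to Notch, had ratios of 8.30 (5.98 to 11.9) and 9.86 (8.23 to 11.9), and Psen2, of gamma-secretase, 3.45 (2.19 to 5.76) and 3.60 (2.92 to 4.49). Mfng, a Fringe glycosyltransferase, was lower, with ratios of 0.0748 (0.0479 to 0.116) and 0.0727 (0.0504 to 0.102), as was Aph1c, of gamma-secretase (0.195 and 0.227). Enzymes of the same step thus lay on both sides. The targets were split as well: Tcf7 had ratios of 5.23 (4.08 to 6.83) and 7.90 (6.73 to 9.33), while Ccnd1 (0.160 and 0.150) and Hes6 (0.468 and 0.479) were lower, and Myc, with enough UMIs in M-cDC, was at 0.298 against 22.4 CPM there. Of turnover genes, Neurl3 was lower (0.457 and 0.441) and Numb, an inhibitor of Notch, was higher in M-cDC (1.997, 1.60 to 2.52).

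Over all clusters with at least 50 cells in a library, the 9 genes had different places of highest level. Notch2 was highest in cDC1-like cells, at 60.3 CPM (50.8 to 71.2) for L-cDC beside 50.3 CPM (45.0 to 56.0) for M-cDC, and each step down to the cDC2-like clusters lay within overlapping intervals. A gap followed in L-cDC between 41.7 CPM (33.9 to 50.8) in the Cd209d and Siglech cluster and 23.2 CPM (19.0 to 27.9) in the highest mature-like cluster, and the lowest level in both libraries, 2.11 and 1.75 CPM, was in the Txndc17 cluster. Rbpj was highest among named clusters in the mature-like Itgb8 cluster (217 and 222 CPM) and cDC1-like cells (215 CPM in both), with overlapping intervals.

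Dtx1 in M-cDC was highest in a dividing cluster with cDC2 markers, at 40.3 CPM (32.3 to 49.8), next to the Ffar2/Ltb cluster, whose interval overlaps, and in L-cDC the NK-like cells followed the Ffar2/Ltb cluster at 16.6 CPM. Notch1 at 31.6 CPM and Nrarp at 6.22 CPM (12 UMIs) were highest in those NK-like cells, of which M-cDC had 1. Hes1 was at 10.8 CPM in cDC1-like cells of both libraries. Adam23 stood apart in an unnamed cluster of low depth (a median of 1878 UMIs), at 964 CPM (870 to 1065) for L-cDC beside 904 CPM (771 to 1053) for M-cDC. That cluster also had the most Malat1, a nuclear RNA, at 325840 and 332870 CPM, while the Txndc17 cluster with 52.1 and 54.1 CPM of Adam23 had 1965 and 1381 CPM of Malat1. The part of this RNA measure in the Adam23 levels was not tested. In cDC2-like cells Malat1 was at 19168 and 20439 CPM, close to equal between the libraries. Across the mature-like clusters, both libraries together, Malat1 ran from 1344 to 127200 CPM. Its part in the ratios of mature-like to cDC2-like cells and in the low Notch2 of the Txndc17 cluster was not tested either.

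**Figure D5:**
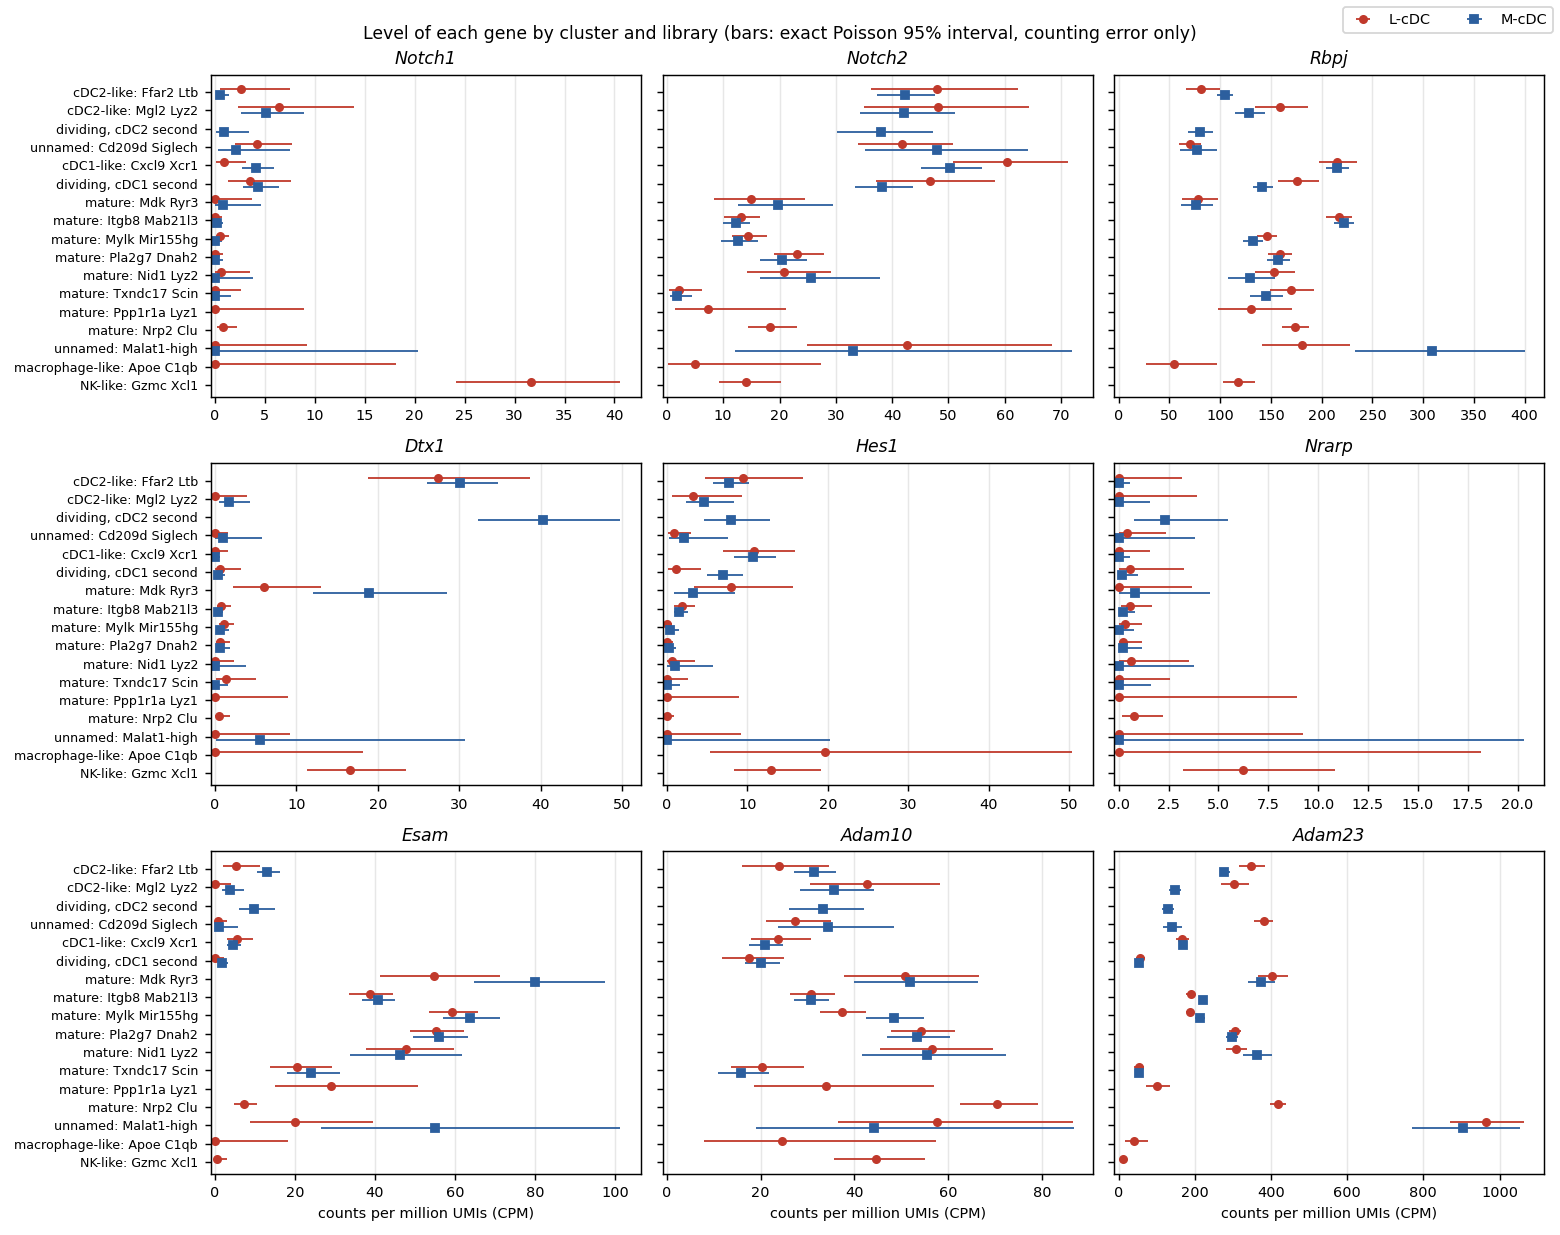
Level in CPM of each of the 9 genes in every cluster with at least 50 cells in a library, for L-cDC (circles) and M-cDC (squares), with 95% Poisson intervals. Esam is highest in mature-like clusters, Dtx1 in the Ffar2 and Ltb cluster and a dividing cluster, Notch2 in cDC2-like and cDC1-like cells, and Nrarp is near 0 outside NK-like cells.

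Likeness of pattern was measured as Pearson's r of log2(CPM + 5) over 29 cluster and library units of 17 clusters, against 7978 genes. The units share libraries and depth, so r is a description. The genes most like Esam were Arf4 (0.935), Mif4gd (0.934), Rab21 (0.925), Cd83 (0.909) and Zfand6 (0.905). Cd83 is a surface marker of mature dendritic cells. Those most like Notch2 were Inip (0.919), Jarid2 (0.917), Ttc7 (0.916), Rfx7 (0.912) and Zfp398 (0.909), and those most like Dtx1 were Haus8 (0.796), Ceacam16 (0.784), Phc1 (0.767), Dab2ip (0.766) and Cul3 (0.758). Among the 9 genes themselves, Notch2 had an r of -0.39 with Esam, 0.19 with Dtx1 and 0.05 with Rbpj, and Esam had -0.01 with Dtx1.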

How the data were processed

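The authors deposited raw UMI counts per gene and barcode for both libraries. Per the file headers they come from Cell Ranger 6.1.2, and per the submitters' processing notes from GRCm38 (mm10). Barcodes with at least 500 genes and at most 10% mitochondrial UMIs were kept. Scrublet (expected rate 0.08) set a doublet threshold of 0.635 for L-cDC, which marks 3 cells, and 0.258 for M-cDC. After both had been seen, the lower was used for each library, which took out 143 and 248 cells.

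Cells were normalised to 10000 UMIs and clustered jointly with scanpy 1.11.5 and leidenalg 0.10.2 (2000 variable genes, 30 components, 15 neighbours, resolution 1.0, seed 1), without the 9 genes and the wider Notch list among the variable genes. Clusters were named by the best-scoring marker list, at a score of at least 0.3 with 3 or more markers at 10 CPM. Low-depth clusters and a cluster mixing pDC and cDC2 markers stayed unnamed. These naming thresholds were set once a first naming was known.

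UMIs were summed per class and library. Levels have exact Poisson, ratios conditional binomial and shares Clopper-Pearson 95% intervals (scipy 1.17.1), for counting error only, and a group at 0 was set to a floor of 3 counts. The calculation was checked on simulated counts with counting error only, with changes set in genes well above the minimum level. That check does not cover sparse genes such as Esam and Hes1 or the floor. The genes and lists were chosen with earlier results of these data known. Named are all 9 genes, other pathway genes past 1.5-fold whose interval leaves out 1 (up to 4 per role) or of highest level (2 per role), up to 4 genes per ESAM list, and the 5 genes most like Esam, Dtx1 and Notch2. Of the pathway list, 2 genes that this rule names are counted but not reported here. Fscn1, Ccr7, Mdk, Ryr3, Malat1, Pecam1, Lyz2, Csf1r, Clec4a4 and Irf4 were named beyond this rule, after their values had been seen. Alternatives varied cell filters, doublets, clustering, class borders, normalisation, the weight of single cells, depth and the minimum level; those on class borders, and all for mature-like cells, were added after seeing the data.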

Additional observations from a re-analysis of the deposited data

Results flagged for a closer look

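For 2 genes the L-cDC to M-cDC ratio lay above 1 in some clusters and below 1 in others, with intervals that leave out 1 on both sides. The difference was not tested, since each cluster has 1 library per group.

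Rbpj had a ratio of 0.777 (0.620 to 0.965) in the cDC2-like Ffar2/Ltb cluster and 1.24 (1.01 to 1.51) in the cDC2-like Mgl2/Lyz2 cluster. Adam23 had ratios of 1.25 and 2.05 in these clusters and 2.72 in the unnamed cluster led by Cd209d and Siglech. In mature-like clusters Adam23 had ratios of 0.857 (0.793 to 0.925) in the cluster led by Itgb8, 0.874 (0.804 to 0.951) in that led by Mylk and 0.845 (0.736 to 0.972) in that led by Nid1 and Lyz2. In those 3 its level was 189 against 221 CPM, 186 against 213 CPM and 307 against 364 CPM.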

How the results depend on the processing

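No paired analysis was possible because each group has 1 library and no replicate could be left out. The counts of genes and members at 1.5-fold moved with the settings. For L-cDC over M-cDC in cDC2-like cells, 323 genes passed, and 997 at a minimum of 5 CPM, 114 at 50 CPM, 718 with cells thinned to 3000 UMIs, 817 in the Mgl2/Lyz2 cluster alone, 546 and 548 with the Mdk and Ryr3 or the Cd209d and Siglech cluster added, 548 at 1000 genes per cell, 505 at 5% mitochondrial UMIs, 538 at resolution 0.5, 494 with the Notch genes among the variable genes, 1650 with each library clustered alone and 608 with each cell classed by marker means. Of the members, 0 passed in the main setting, and 1 passed in each of several others. It was Esam at 5 CPM, and Adam23 in the Mgl2/Lyz2 cluster and by marker means. It was Dtx1 with the Mdk and Ryr3 cluster, at 5% mitochondrial UMIs and at resolution 2.0. It was also Dtx1 with the Notch genes among the variable genes and with each library alone. Dtx1 passed as well when, gene by gene, the UMIs of the cell with most UMIs of that gene were taken out of each group. With the Cd209d and Siglech cluster or at resolution 0.5, 2 members passed (Adam23, Dtx1). The log2 ratio of Esam, -1.89, turned to 0.040 with the Mdk and Ryr3 cluster counted as cDC2-like and was negative in the other 15 of 16 alternatives. In that cluster alone Esam was lower in L-cDC (ratio 0.684, 0.482 to 0.962). Adam23 stayed above 1 in 16 of 16 (ratio 1.12 to 2.05), and Notch2 lay between 0.945 and 1.22. Others crossed 1: Dtx1 ran from 0.161 to 1.89 (below 1 in 14 of 16), Hes1 from 0.294 to 1.74, Rbpj from 0.748 to 1.47 and Adam10 from 0.764 to 1.44.

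Between the cDC2-like clusters of M-cDC, 920 genes and 2 members passed, with 1757 and 4 at 5 CPM, 422 and 1 at 50 CPM, and 1846 genes with the Notch genes among the variable genes. In L-cDC, 1462 genes and 2 members passed, with 923 and 1 at 50 CPM and 496 and 1 after thinning. Dtx1 had a ratio of 11.1 to 22.4 in M-cDC and, in part at the floor, 2.67 to 10.2 in L-cDC in 8 of 8 alternatives each. In L-cDC, Esam ran from 0.710 to 2.07 over 6 alternatives and Notch2 from 0.656 to 1.15 over 8. At 1000 genes per cell and at resolution 0.5 this contrast gave no value, since a side of it held no cells. For mature-like over cDC2-like cells, 3276 genes and 4 members passed in M-cDC, with 5529 genes at 5 CPM, 1832 genes and 1 member at 50 CPM and 2 members with doublets kept. In L-cDC, 3088 genes and 2 members passed, with 5114 genes at 5 CPM, 1633 and 0 at 50 CPM, 5 members at 1000 genes per cell, and 4 at resolution 0.5 and by marker means. Rbpj in L-cDC ran from 0.947 to 1.97 and Adam10 from 0.985 to 1.66. Esam stayed higher in mature-like cells in 14 of 14 alternatives in both libraries, by 6.04 to 42.6 times in L-cDC and 3.25 to 6.18 times in M-cDC. Fewer UMIs or cells enter some of these settings by construction, and otherwise the cause was not tested. The Esam ratios of cDC2-like L-cDC cells rest on 6 UMIs.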
